A study of Rattus norvegicus with 6 samples.

Results

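The aryl hydrocarbon receptor (AhR) genes examined here were the receptor gene Ahr, its partner gene Arnt, and 5 genes known as its targets: the cytochrome P450 genes Cyp1a1, Cyp1a2 and Cyp1b1, the quinone reductase gene Nqo1 and the aldehyde dehydrogenase gene Aldh3a1. They were found as all probe sets (groups of short probes that measure one transcript) that the platform annotation gives to 1 of these genes alone. This gave 7 genes with 8 probe sets, of 14217 named genes and 31042 probe sets on the array. Ahr had 2 probe sets and the other genes 1 each. Where a gene had several, the probe set chosen by the highest mean over all 6 arrays stands for the gene, and that mean does not use the difference between the groups. The genes were listed by name with earlier results of these data known, so counts of members or of pathway genes that passed are a description.

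AhR is a receptor of the bHLH-PAS family that waits in the cytoplasm with heat shock chaperones. When it binds a ligand, such as dioxin, a polycyclic aromatic hydrocarbon or a breakdown product of tryptophan, it enters the nucleus, pairs with ARNT and binds response elements with the core letters GCGTG. The CYP1 enzymes it induces oxidise aromatic hydrocarbons and oestradiol, and in the rat mammary gland they turn polycyclic hydrocarbons such as dimethylbenzanthracene into the reactive forms that start tumours. NQO1 reduces quinones and ALDH3A1 oxidises aromatic aldehydes, and both genes are also switched on by NRF2, the regulator of antioxidant defence.

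RNA came from mammospheres, the floating spheres that mammary cells form when they cannot attach to the dish, and was measured on 6 Affymetrix arrays. The cells were from mammary glands of female Sprague Dawley rats that had received recombinant human chorionic gonadotropin (hCG, a pregnancy hormone that acts on the ovary) or buffer. The 3 hCG arrays came from rats given 100 IU per day by intraperitoneal injection for 21 days from 55 days of age, and the 3 control arrays from rats given phosphate buffered saline on the same schedule. In both groups the glands were removed 21 days after dosing stopped, and cells enriched for epithelium formed spheres over 7 days in medium with EGF, basic FGF and heparin. Arrays are numbered 5, 6 and 7 in each group. Whether each array holds a different rat is not stated, and the p-values therefore cover only the variation among these samples, part of which may be technical.

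The medians of the 6 arrays were alike, from 3.44 to 3.48 (log2). Epithelial markers were present, with Epcam between 6.36 and 7.97 and Krt8 between 5.32 and 6.98 over the 6 arrays, and so were markers of stroma, with the fibroblast gene Dcn between 12.33 and 12.60. Bacterial poly-A spikes, put into the RNA ahead of labelling, were at 4.32, 4.90 and 4.31 on the hCG arrays against 5.43, 5.53 and 5.71 on the controls (mean log2 of 24 probe sets), lower on each hCG array, while the median change of all tested probe sets was 0.02. The part of the spike difference in the results below was not tested. The signal at the 3' end of a transcript minus that at its 5' end was largest on Control 7, at 2.18 for Actb and 0.67 for Gapdh (log2). On the other arrays it ran from 1.46 to 1.75 for Actb and from 0.05 to 0.22 for Gapdh. The part of this difference in the results was not tested either.

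Promoters are shown first for 2 of the genes whose RNA differed between the groups, because the receptor acts through letters that can be looked for there. RefSeq's GRCr8 table gave the 250 bases before the annotated start for 5 of the 7 genes: Cyp1b1, Cyp1a2, Ahr, Arnt and Nqo1. The core GCGTG, searched on both strands, occurred in 3 of these 5, and in 25.9% of 33469 promoters of that length. Cyp1b1, on chromosome 6, held it 2 times, at 81 to 77 bases before the start as its reverse complement CACGC and at 20 to 16 bases before the start in the forward direction. The 30 bases around each are given, with the core or its complement in capitals, on the plus strand of GRCr8 (chr6:21094472-21094501 and chr6:21094533-21094562):
Cyp1b1 far core: cgtcccgcccctCACGCcccaccccttaag
Cyp1b1 near core: agtagagggatgGCGTGtcgcctctggggt

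Nqo1, on chromosome 19, held the core 1 time as CACGC, at 10 to 6 bases before the start, in capitals in its whole 250 bases (minus strand of GRCr8, chr19:52220268-52220517):
Nqo1 promoter: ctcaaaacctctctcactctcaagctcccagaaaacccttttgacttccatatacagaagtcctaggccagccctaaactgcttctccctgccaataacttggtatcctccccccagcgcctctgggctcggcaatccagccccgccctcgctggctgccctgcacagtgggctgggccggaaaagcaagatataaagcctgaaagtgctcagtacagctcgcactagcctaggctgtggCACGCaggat

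Arnt also held GCGTG, 1 time, and Cyp1a2 and Ahr held none in this window. Of the genes that damp the pathway, Ahrr held it 3 times and Tiparp 1 time. The letters TGACNNNGC, the core of the element that NRF2 binds, were searched on both strands too. They occurred in 1 of the 5 promoters, that of Arnt, and in 10.1% of all. A match describes the letters in the window and is no evidence of binding, and response elements known for these genes can lie farther upstream.

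The target genes Cyp1b1, Nqo1 and Cyp1a1 fell in hCG spheres. Cyp1b1 fell 2.09-fold, Nqo1 fell 2.06-fold and Cyp1a1, the gene most often used as a readout of AhR activity, fell 1.97-fold. These were the 3 members bright enough to be tested, which means a mean above 2.67 on the log2 scale, the level that leaves out the dimmest 40% of probe sets. All 3 were called lower by limma's moderated test (adjusted p under 0.05, Benjamini-Hochberg over 18625 probe sets). The same rule called 1.6% of the tested probe sets in either direction, 0.789% as lower and 0.811% as higher in hCG. The other 4 members, Ahr, Arnt, Cyp1a2 and Aldh3a1, lay below the filter.

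Cyp1b1 read 7.75, 7.58 and 7.30 on controls 5, 6 and 7 and 6.66, 6.24 and 6.54 on hCG arrays 5, 6 and 7 (log2). Every hCG array lay below every control array, with a gap of 0.64 between the lowest control and the highest hCG value. The means were 7.54 ± 0.23 (SD, n = 3) and 6.48 ± 0.22 (SD, n = 3). The log2 change was -1.06 (SE 0.16, 95% interval -1.43 to -0.69, limma adjusted p = 0.0405). Among all tested probe sets 1.15% changed by as low a value or lower. The single probe set is 1368990_at.

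Nqo1, whose enzyme detoxifies quinones, read 9.67, 9.19 and 9.03 on the controls and 8.29, 8.26 and 8.20 on the hCG arrays. Again the groups were apart, with a gap of 0.74, and the hCG arrays lay close together (SD 0.04) where the controls were spread (SD 0.34), Control 5 being the highest. The log2 change was -1.04 (SE 0.16, 95% interval -1.44 to -0.65, limma adjusted p = 0.0432). The probe set is 1387599_a_at.

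Cyp1a1 was much nearer the filter level. Its values were 3.79, 3.60 and 3.94 on the controls and 3.14, 2.71 and 2.54 on the hCG arrays, so that hCG 7 lay below 2.67. The groups did not overlap, with a gap of 0.46, and hCG 5 was nearest to the controls. The log2 change was -0.98 (SE 0.17, 95% interval -1.38 to -0.58, limma adjusted p = 0.0487). Its fold is measured at dim signal on the hCG side. The probe set is 1370269_at.

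**Figure D1:**
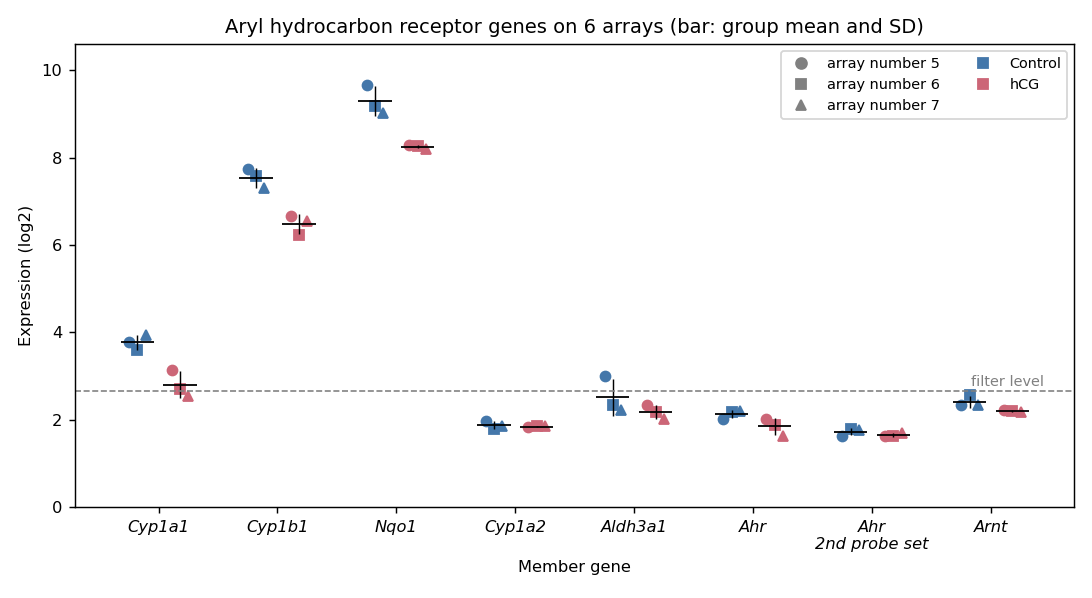
Expression (log2, vertical axis) of the 8 member probe sets on each array, controls in blue and hCG in red, with array number by symbol, group mean and SD as black bars and the filter level of 2.67 as a dashed line. Cyp1a1, Cyp1b1 and Nqo1 lie above the line on average and separate by group, while the other 5 probe sets lie below it on average.

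The calls for these 3 genes needed nearly all arrays, while the sizes did not move much. In fits that lacked Control 5, Control 6, hCG 5 or hCG 7, the test passed 0 of 18625 probe sets, so no member was called there. Unadjusted p was under 0.05 for 3433, 3360, 2860 and 2545 probe sets in these fits and for 4260 in the fit of all 6 arrays. The adjusted p of Cyp1b1 was then 0.0946, 0.125, 0.12 and 0.194, that of Nqo1 0.0788, 0.124, 0.128 and 0.21, and that of Cyp1a1 0.117, 0.125, 0.104 and 0.21. Without Control 7, Cyp1b1 (adjusted p = 0.0236) and Nqo1 (0.0273) passed and Cyp1a1 did not (0.0542). Without hCG 6, Cyp1b1 passed (0.0482), and Nqo1 (0.0607) and Cyp1a1 (0.0761) did not. Over the 6 fits that each lack 1 array, the change of Cyp1b1 stayed between -1.18 and -0.94 (log2), that of Nqo1 between -1.18 and -0.86 and that of Cyp1a1 between -1.15 and -0.85. With the array number as a block limma called none of the 3 (adjusted p = 0.0573 for Cyp1b1, 0.0575 for Nqo1 and 0.0759 for Cyp1a1) and 1 probe set in all.

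The order of the arrays within each group was not the same for all 3 genes, though Nqo1 and Cyp1b1 had close profiles. Relative to its own control mean, Cyp1b1 stood at -0.88, -1.30 and -1.0 on hCG 5, 6 and 7, lowest on hCG 6. Cyp1a1 stood at -0.64, -1.06 and -1.24, lowest on hCG 7. Nqo1 stood at -1.0, -1.04 and -1.09, nearly level. Among the controls Nqo1 and Cyp1b1 shared an order, highest on Control 5 (0.38 and 0.21) and lowest on Control 7 (-0.27 and -0.24), whereas Cyp1a1 was highest on Control 7 (0.16). The poly-A spikes were also lower on every hCG array, with a mean of 4.51 against 5.56 on the controls (log2). Their part in the falls of the 3 genes was not tested.

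Marker genes of several cell types also differed between the arrays, and in bulk RNA fewer cells of a type and less RNA per cell cannot be told apart. The level of a marker list on an array is the mean over its measured genes of the log2 value minus the control mean. For endothelial markers (11 of 14 measured; Tie1 and Vwf below the filter) it ran from -0.36 to 0.49 on controls and from 1.16 to 1.25 on hCG arrays. For fibroblast markers (11 of 12; Fbln1 below) it ran from -0.04 to 0.04 and from 0.11 to 0.38, and for pericyte markers (6 of 8; Cspg4 and Kcnj8 below) from -0.13 to 0.17 and from 0.34 to 0.57. The levels of these 3 lists were thus higher on every hCG array than on any control. All 11 measured endothelial markers had a change above 0 (median log2 change 1.23), and 4 of them passed limma's adjusted test. Single markers could differ from their list. Of the 11 measured fibroblast markers, 9 had a change above 0 and 2 below (median log2 change 0.37), and 1 fell and 1 rose by limma's adjusted test. The fibroblast marker Dpt, a matrix protein, read 4.67, 4.33 and 4.21 on the controls and 3.54, 3.49 and 3.21 on the hCG arrays and fell with the 3 genes (-0.99, limma adjusted p = 0.0406), while Lum of the same list rose (1.13, 0.0405). Lum, and Cd24 below, were named after their values were seen.

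Epithelial markers were spread among the controls. Pan-luminal markers (11 of 13; Muc1 and Ehf below) ran from -0.78 to 0.64 on controls and from -0.69 to -0.38 on hCG arrays, and overlapped. Of these 11, 9 lay below 0 and 1 fell: Cd24, a surface glycoprotein of luminal cells, read 8.04, 8.56 and 8.08 on the controls and 6.67, 6.86 and 6.87 on the hCG arrays (log2 change -1.42, limma adjusted p = 0.0329). Basal and myoepithelial markers (10 of 13; Cnn1 and Oxtr below) ran from -0.66 to 0.51 and from 0.47 to 0.71, and overlapped too. All 10 had a change above 0 (median log2 change 0.65), and 0 passed limma's adjusted test. Among the controls, Control 5 had the lowest level of both lists and the highest Nqo1 and Cyp1b1. Control 7 had the highest level of both lists and the highest Cyp1a1 of the controls. Macrophage markers (4 of 10; Csf1r, Cd163, Mrc1, C1qa, C1qb and C1qc below) ran from -0.30 to 0.52 and from -0.18 to 0.19, highest on Control 5. The 4 genes went opposite ways, 2 below 0 and 2 above, with log2 changes from -1.33 to 0.9, and 0 passed. For adipocyte markers (2 of 8; Adipoq, Plin1, Cidec, Lep, Pparg and Plin4 below) the list level ran from -0.27 to 0.17 on controls and from 0.31 to 0.66 on hCG arrays. The part of these markers in the falls of the 3 genes was not tested.

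**Figure D2:**
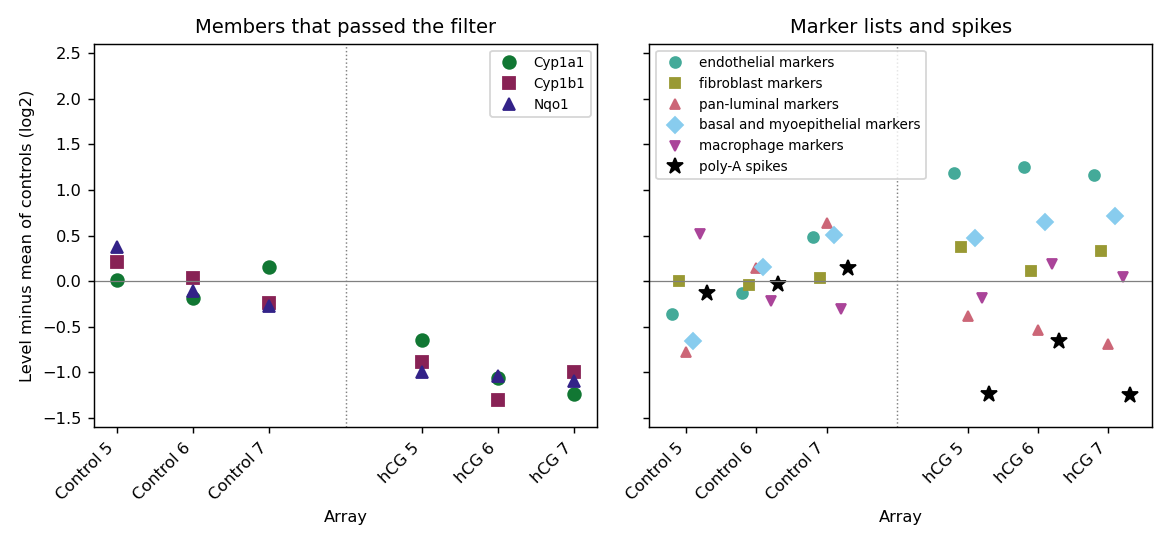
Level on each array (horizontal axis) minus the mean of the controls, in log2 units (vertical axis), for Cyp1a1, Cyp1b1 and Nqo1 in the left panel and for the mean of 5 marker lists and the poly-A spikes in the right panel. The 3 genes lie between -1.30 and -0.64 on hCG arrays, and the endothelial list between 1.16 and 1.25.

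The receptor gene itself was dim. The brighter Ahr probe set (1369147_at) read 2.03, 2.17 and 2.20 on the controls and 2.01, 1.89 and 1.64 on the hCG arrays. The groups were apart by a gap of only 0.01, with hCG 7 the lowest. Fitted without the filter its log2 change was -0.29 (SE 0.11, limma adjusted p = 0.261). The other probe set (1369146_a_at) lay between 1.62 and 1.78 on all arrays, with overlapping groups and a change of -0.08 (SE 0.08, limma adjusted p = 0.692).

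Arnt, the partner that AhR shares with the hypoxia factors, read 2.33, 2.56 and 2.33 on the controls and 2.23, 2.20 and 2.19 on the hCG arrays. All hCG arrays were lower, by a gap of 0.10, and the change was -0.20 (SE 0.09, limma adjusted p = 0.308 without the filter). Of the 4 members below the filter, Ahr and Arnt thus had groups that did not overlap, lower in hCG, as had 6.23% of the 12417 probe sets below the filter. Of the tested probe sets 12.4% had such groups lower in hCG.

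Aldh3a1 and Cyp1a2 had overlapping groups. Aldh3a1 read 3.0, 2.35 and 2.22 on the controls and 2.35, 2.17 and 2.01 on the hCG arrays, with Control 5 alone above the filter level (change -0.34, SE 0.20, limma adjusted p = 0.461 without the filter). It was the member nearest below the filter, with a mean over all arrays of 2.35, and Cyp1a1 the nearest above, at 3.29. Cyp1a2, a P450 mostly of liver, lies on chromosome 8 next to Cyp1a1, with 0 annotated genes between them in GRCr8. It read 1.98, 1.79 and 1.85 on the controls and 1.83, 1.85 and 1.85 on the hCG arrays (change -0.03, SE 0.08, limma adjusted p = 0.886 without the filter). The pair of neighbours therefore gave different pictures: the Cyp1a1 probe set dropped while that of Cyp1a2 stayed dim, with a 95% interval of -0.22 to 0.16. At such dim signal a true difference in these 4 genes could go unseen.

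Of the feedback genes that AhR is known to induce, Tiparp differed little and Ahrr was dim. Tiparp, which encodes an enzyme that marks AhR for loss, was bright, at 7.88, 7.63 and 7.30 on the controls and 7.75, 7.34 and 7.41 on the hCG arrays. The groups overlapped and the change was -0.10 (SE 0.17, 95% interval -0.52 to 0.31, limma adjusted p = 0.772; second probe set -0.09, 0.811), with 0.04 without Control 5, where its sign turned. The change of Tiparp was not tested against those of the 3 fallen targets. Ahrr, which encodes the AhR repressor, lay below the filter, at 2.23, 2.38 and 2.12 on the controls and 2.26, 2.05 and 2.36 on the hCG arrays (change -0.02, limma adjusted p = 0.95 without the filter). A true difference in Ahrr could go unseen at such dim signal.

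Other genes around the pathway were taken from 10 fixed lists with 128 distinct genes, of which 112 were on the array and 88 passed the filter. Of these 88, 3 fell and 0 rose, 3.41% against 1.6% of all tested probe sets, with a median log2 change of -0.12 against 0.02. The 88 are genes by their brightest probe set, and of all 10424 tested genes counted that way 177 passed. The 3 that fell were Aldh1l1, Aldh2 and Pgd. In the lists for the AhR complex and cofactors (12 tested), other AhR-responsive genes (10), tryptophan and kynurenine enzymes (4), P450 partners and conjugating enzymes (15), oestrogen enzymes (5), bHLH-PAS relatives (6) and hypoxia targets (11), 0 of 63 genes passed limma's adjusted test in either direction, with 17 at an unadjusted p under 0.05. Among all tested probe sets 4260 of 18625 had such an unadjusted p. Without Control 7, 6 of the 63 passed: Klf6, Slc7a5 and Epas1 higher, and Serpinb2, Ereg and Aadat lower. In that fit 5.71% of all tested probe sets passed, and of the 88 genes 11 did. With array weights, which called 22.8% of all tested probe sets, 19 of the 63 passed.

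Among the AhR cofactors the median change was 0.03. Arnt2, a relative of Arnt, was at -0.28 (limma adjusted p = 0.116), with its second probe set, below the filter, at 0.00 (0.987). Klf6, a zinc finger factor that can pair with AhR, was at 0.45 (limma adjusted p = 0.0778), with its other probe sets at 0.55 (0.0533) and 0.22 (0.441). Of other AhR-responsive genes 7 of 10 lay below 0, with a median of -0.21. The growth factor gene Ereg was at -1.24 (SE 0.45, limma adjusted p = 0.17), with controls from 3.35 to 5.27. The amino acid transporter gene Slc7a5 was at 0.56 (limma adjusted p = 0.205).

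The enzymes that make tryptophan-derived AhR ligands had 4 measured genes with a median of 0.05. Ido1, Tdo2, Kmo, Kynu and Afmid lay below the filter. Fitted without the filter, Ido1 was at -0.78 (limma adjusted p = 0.0969) with groups that did not overlap. The others ran from -0.12 (Kynu) to 0.01 (Afmid). Aadat, an aminotransferase that acts on kynurenine, read 5.88, 5.51 and 3.91 on the controls and 2.35, 3.78 and 3.23 on the hCG arrays. It had the lowest value of its list at a change of -1.98, but its spread was wide (SE 0.56, limma adjusted p = 0.112). Kyat3, another aminotransferase of this route, was at 0.15 (limma adjusted p = 0.528). Of the electron suppliers and conjugating enzymes, Por, the reductase that feeds electrons to P450 enzymes, was at -0.44 (limma adjusted p = 0.117) and its second probe set at -0.23 (0.23). The glutathione transferase gene Gstk1 was at 0.53 (limma adjusted p = 0.275). Of the enzymes that supply or interconvert oestrogens, Sts, the steroid sulfatase gene, was at -0.29 (limma adjusted p = 0.166) and Hsd17b4 at 0.19 (0.256). The aromatase gene Cyp19a1 lay below the filter.

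Aldehyde dehydrogenase relatives of Aldh3a1 lay below 0 in 7 of 8 measured genes, with a median of -0.55, and 2 fell. Aldh1l1, a folate enzyme, read 5.5, 5.37 and 5.43 on the controls and 4.51, 4.73 and 4.65 on the hCG arrays, and fell by 0.81 on the log2 scale (SE 0.09, limma adjusted p = 0.0347). Aldh2, the mitochondrial enzyme that clears acetaldehyde, read 7.40, 7.68 and 7.81 on the controls and 6.74, 6.80 and 7.02 on the hCG arrays, and fell by 0.78 on the log2 scale (SE 0.13, limma adjusted p = 0.047). Aldh1a2, which makes retinoic acid, was at -1.03 (SE 0.26, limma adjusted p = 0.0895). Like those of the members, both calls were lost without Control 5, Control 6, hCG 5 or hCG 7 (adjusted p from 0.0804 to 0.192) and with the block (0.0586 for Aldh1l1 and 0.0573 for Aldh2), and that of Aldh2 also without hCG 6 (0.0732).

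NRF2 targets, which share Nqo1 with the AhR targets, lay below 0 in 12 of 16 measured genes, with a median of -0.27. Pgd, the pentose phosphate enzyme that makes NADPH, read 8.84, 8.70 and 8.79 on the controls and 8.11, 8.20 and 8.13 on the hCG arrays, and fell by 0.63 on the log2 scale (SE 0.08, limma adjusted p = 0.0393). Its adjusted p was 0.0922, 0.112, 0.125 and 0.192 without Control 5, Control 6, hCG 5 and hCG 7, and 0.0721 with the block. Hmox1, the haem oxygenase gene, was at -0.75 (SE 0.25, limma adjusted p = 0.143) and Gpx2, a glutathione peroxidase gene, at 0.85 (SE 0.51, 0.377).

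ARNT also pairs with the hypoxia-inducible factors. Of 11 measured hypoxia targets 8 lay below 0, with a median of -0.36 and a wide spread among the hCG arrays: the list level was -0.82, 0.06 and -0.48 on hCG 5, 6 and 7 and 0.23, 0.05 and -0.28 on the controls. Vegfa, the vessel growth factor gene, was at -1.46 (SE 0.47, limma adjusted p = 0.137; second probe set -1.41, 0.0745) and the oxygen sensor gene Egln3 at -1.17 (0.155). Epas1, which encodes HIF-2 alpha and is strong in endothelium, was at 1.13 (SE 0.30, limma adjusted p = 0.0936), and its second probe set, below the filter, at -0.06 (0.767). Npas2, a clock factor, was at -0.73 (limma adjusted p = 0.177).

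**Figure D3:**
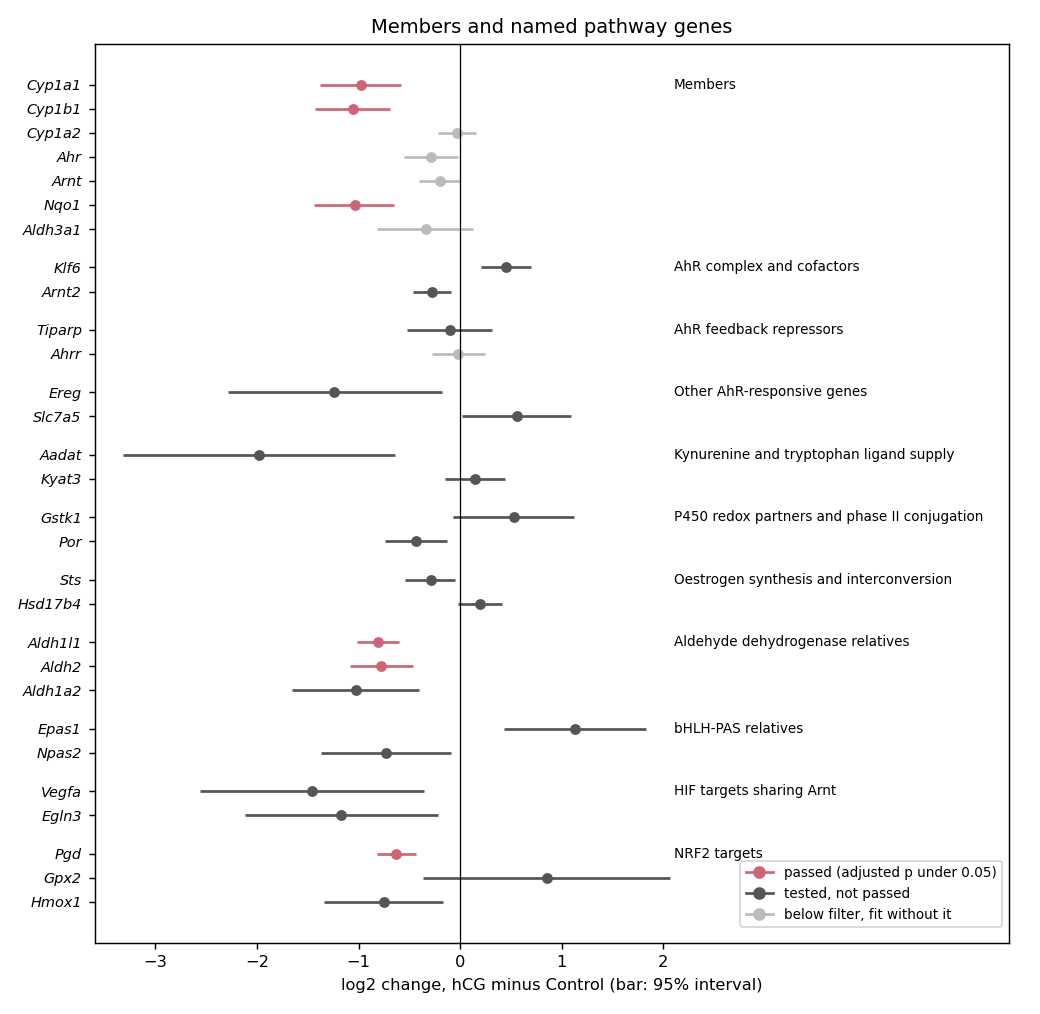
Change between hCG and control on the log2 scale (horizontal axis, point) with its 95% interval (bar) for the 7 members and the named genes of 10 pathway lists, in red where limma's adjusted p is under 0.05, dark grey where it is not and light grey where the gene lies below the filter. Cyp1a1, Cyp1b1, Nqo1, Aldh1l1, Aldh2 and Pgd are red, all to the left of 0, while Tiparp and Ahrr lie close to 0.

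The genes whose profile over the 6 arrays was most like those of the 3 fallen targets were found by the root mean square distance between log2 values, each gene centred on its own mean, among 10424 genes. For Cyp1b1 these were Sncg (0.15), Ggt1 (0.15) and Nqo1 itself (0.16), where the median distance to all genes was 0.59. For Nqo1 they were Dpt (0.10), Ggt1 (0.10) and Cpt1a (0.14), with Cyp1b1 in place 7. For Cyp1a1 they were the MHC class I gene RT1-A (0.13), Kazald1 (0.20) and Sncg (0.21), with Cyp1b1 in place 20 and Nqo1 in place 37. Ggt1 encodes the enzyme that begins glutathione breakdown outside the cell, Cpt1a the carnitine enzyme of fatty acid entry into mitochondria and Dpt is the fibroblast marker named above. RT1-A belongs to a family of near-identical genes that a probe set may not tell apart. Such closeness was measured on the same arrays and follows in part from the difference between the groups that all these genes share.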

How the data were processed

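The authors' deposited table gives log2 expression for 6 Affymetrix 3' arrays, hybridised after 2 rounds of amplification (labels' protocols). RMA, MAS5 and limma stand in the submitters' processing notes without versions or roles. Log base and normalization are not given in the sources used here; values from 0.74 to 13.1, distributed alike on each array, were taken as normalized log2. The members and lists were chosen with earlier results of these data known.

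Groups and array numbers came from sample titles. The 57 control probe sets were left out, and so were the dimmest 40% of the others by mean over all arrays (below 2.67). The test was limma 3.58.1 (R 4.3.3; lmFit, then eBayes) of hCG against control over 18625 probe sets, two-sided, with Benjamini-Hochberg adjustment and a threshold of 0.05. Precision is limited by the array number (4 residual degrees of freedom). Of 31042 probe sets, 20826 named 1 gene, 436 several and 9780 none; 20758 symbols were updated through Entrez numbers with RefSeq's table (GRCr8). A gene below the filter was fitted without it. Genes outside the members were named by a fixed rule: those of each list that passed, the 2 of largest change, Ahrr and Tiparp, and the 3 nearest profiles of each tested member that ranged over more than 1 log2 unit. Alternatives were other filters and normalizations, the array number as block, array weights, trend and robust eBayes, adjustment over genes and each array left out.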

Additional observations from a re-analysis of the deposited data

How the results depend on the processing

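The log2 changes of Cyp1a1, Cyp1b1 and Nqo1 were below 0 under each alternative run, while their calls were not stable. Cyp1a1 missed the threshold with no filter on dim probe sets (-0.98, adjusted p = 0.0504), median centring (-0.97, 0.0506) and robust eBayes (-0.98, 0.0507), and could not be tested with the dimmest 60% left out. Whether the array numbers pair animals or batches is not stated, so the main test did not take them as pairs. Correlations of deviations from the group means were -0.087, 0.131 and 0.002 for same-numbered arrays. For arrays of unlike number they ran from -0.193 to 0.176. Deviations within such small groups sum to 0, so these correlations cannot decide whether the numbers mark pairs. With the array number as a replicate block 1 probe set and 0 members passed, and the changes were -0.98 (adjusted p = 0.0759), -1.06 (0.0573) and -1.04 (0.0575) for Cyp1a1, Cyp1b1 and Nqo1. Against 298 probe sets in the main test, array weights called 4253 and a variance trend 500, and adjustment over 10424 genes called 190 genes (177 with the adjustment over probe sets). With 1 array left out in turn, between 0 and 1064 probe sets and between 0 and 2 members passed, and the changes ran from -1.15 to -0.85 (Cyp1a1), -1.18 to -0.94 (Cyp1b1) and -1.18 to -0.86 (Nqo1). The causes were not tested. With 1 array left out the change of Tiparp ran from -0.26 (without Control 7) to 0.04 (without Control 5), and with array weights it was -0.28. The mean of a gene's tested probe sets changed nothing, since each tested member had 1. The planned pseudocounts for linear values were not run, since the values are on a log scale. Signal near background limits what can be said of Ahr, Arnt, Cyp1a2 and Aldh3a1.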
